A study of Mus musculus with 12 samples.

Results

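Genes were compared between cultured mouse muscle stem cells sorted as GFP-positive and cells sorted as GFP-negative, both of which had received an empty control plasmid. Of the 23586 genes in the table, 13790 had at least 10 normalized counts in at least 3 of the 6 control libraries and were kept. A normalized count is a read count divided by a size factor of its library. Of the kept genes, 12532 reached 10 in all 6 libraries, 58 passed through the 3 GFP-negative libraries alone and 47 through the 3 GFP-positive libraries alone. The 415 genes that reached 10 in exactly 3 libraries had a median mean of 10.6 normalized counts, and the 501 genes just outside, with exactly 2 such libraries, 8.12.

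All cells carried the genotype Pax3nLacZ-IRES-GFP, a reporter allele of Pax3, and the sorted populations are described in the labels as PAX3-positive (GFP-positive) and PAX3-negative (GFP-negative). The cells were sorted by FACS, cultured in medium with 20% fetal calf serum and 4 ng/mL basic FGF, and transfected with 2 µg of empty pCR3 using Lipofectamine LTX with PLUS reagent. RNA came from at least 50000 cells per sample, with 3 libraries per group. A further 6 libraries of the same sorted populations were labelled as transfected with pCR3 carrying the mouse Six2 cDNA. They held the same GFP contrast in other samples. The fit included them, so they enter the spread behind the control p-values but not the control differences. Age, sex, strain and muscle of origin were not given in the labels used here. Whether the 3 libraries of a group are separate animals, separate cultures or repeats of 1 culture is not in the labels, and the p-values below therefore reflect the spread among libraries, which may be technical.

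Muscle stem cells lie beside the myofibre, are marked by the paired-box factor PAX7, and leave quiescence to proliferate as MYOD1-positive myoblasts before MYOG-positive cells withdraw from the cycle and build sarcomeres. PAX3, a paralogue of PAX7, remains expressed in the stem cells of some muscles only. A gene programme that any cell type can switch on is the type I interferon response: cytosolic sensors detect nucleic acid, interferons signal through their receptor to STAT and IRF factors, and these bind a response element in the promoters of antiviral genes.

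Control libraries held 12438885 to 33151990 reads in the GFP-negative group and 31295165 to 47299937 in the GFP-positive group. In every control library several myogenic markers were abundant. Myog lay between 81773 and 94515, Itga7 between 32552 and 35020 and Des between 152870 and 183830 normalized counts. The stem cell marker Pax7 lay between 82.5 and 148, and Msc, Chodl and Calcr had at most 6.43, 14.1 and 7.1. Marker lists of other cell types gave no called gene with limma-trend or edgeR, while DESeq2 called the fibro-adipogenic marker Gsn (log2 -0.27, DESeq2 adjusted p = 0.0359) and the pericyte marker Pdgfrb (-0.60, DESeq2 adjusted p = 0.0288), both lower in GFP-positive control libraries without overlap. Pericyte markers pointed both ways, with 1 of 9 tested lower and 2 higher without overlap, against 14.6% and 13.3% of all genes. Rgs5 was higher, at 4.28, 7.14 and 11.3 in GFP-negative and 22.9, 29.9 and 20.2 in GFP-positive control libraries (log2 1.63, limma-trend adjusted p = 0.0929). Without GFP-positive control library 1, limma-trend called 1 fibro-adipogenic marker, Gsn. Summed levels of 13 leukocyte markers were 233 to 266 in GFP-negative and 202 to 256 in GFP-positive control libraries, with Adgre1 at 0 in all 6, and those of 11 endothelial markers 105 to 159 and 120 to 154. The 11 fibro-adipogenic markers summed to 3523 to 3905 against 2864 to 3411, nearly all of it Gsn, with Dcn at 0 in all 6.

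Pax3, the gene behind the sort, did not separate the groups. GFP-negative control libraries had 72.8, 68.2 and 73.2 normalized counts of it and GFP-positive ones 94.1, 62.5 and 59.9. The log2 difference was -0.01 with a standard error of 0.41 (limma-trend, adjusted p = 0.991). The GFP-positive values lay on both sides of the GFP-negative ones. The labels GFP-positive and GFP-negative therefore stand here for the gate at sorting, which Pax3 RNA after culture did not check. Expression of the GFP sequence itself was not analysed here. Six2 RNA was low in all 12 libraries, at 4.28, 15.9 and 24.4 in GFP-negative and 5.35, 13.3 and 3.37 in GFP-positive control libraries. Libraries labelled as carrying the Six2 cDNA had 22.8, 23.7 and 19.2 in the GFP-negative and 28.6, 23.4 and 6.51 in the GFP-positive group, within or close to the control range, so Six2 RNA did not set them apart and they are called here by their label only.

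Between the control groups 517 of 13790 genes, 3.75%, passed an adjusted p of 0.05 (limma-trend on log2(normalized count + 1), all 12 libraries in 1 fit, Benjamini-Hochberg adjustment over all genes). Lower in GFP-positive libraries were 377 genes (2.73%) and higher 140 (1.02%), and differences are given throughout as GFP-positive minus GFP-negative. Quantile normalization, which moved the median difference of all genes from -0.0047 to 0.036, changed this split to 277 lower and 167 higher. By over 2-fold, 163 genes were lower (1.18%) and 10 higher (0.0725%). Genes that passed in each of the 6 fits leaving out 1 control library numbered 57 lower (0.413%) and 5 higher (0.0363%). Leaving out GFP-negative control library 1, 2 or 3 gave 72, 177 and 176 called genes, leaving out GFP-positive control library 1, 2 or 3 gave 85, 187 and 846, and leaving out GFP-negative library 2 of the SIX2 label gave 319. Of the 517 genes, 449 were among the 461 called by edgeR's quasi-likelihood test on whole reads recovered from the values, and 505 among the 1091 called by DESeq2. With limma-trend on the 6 control libraries alone 469 genes were called, 367 of them among the 517.

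**Figure D1:**
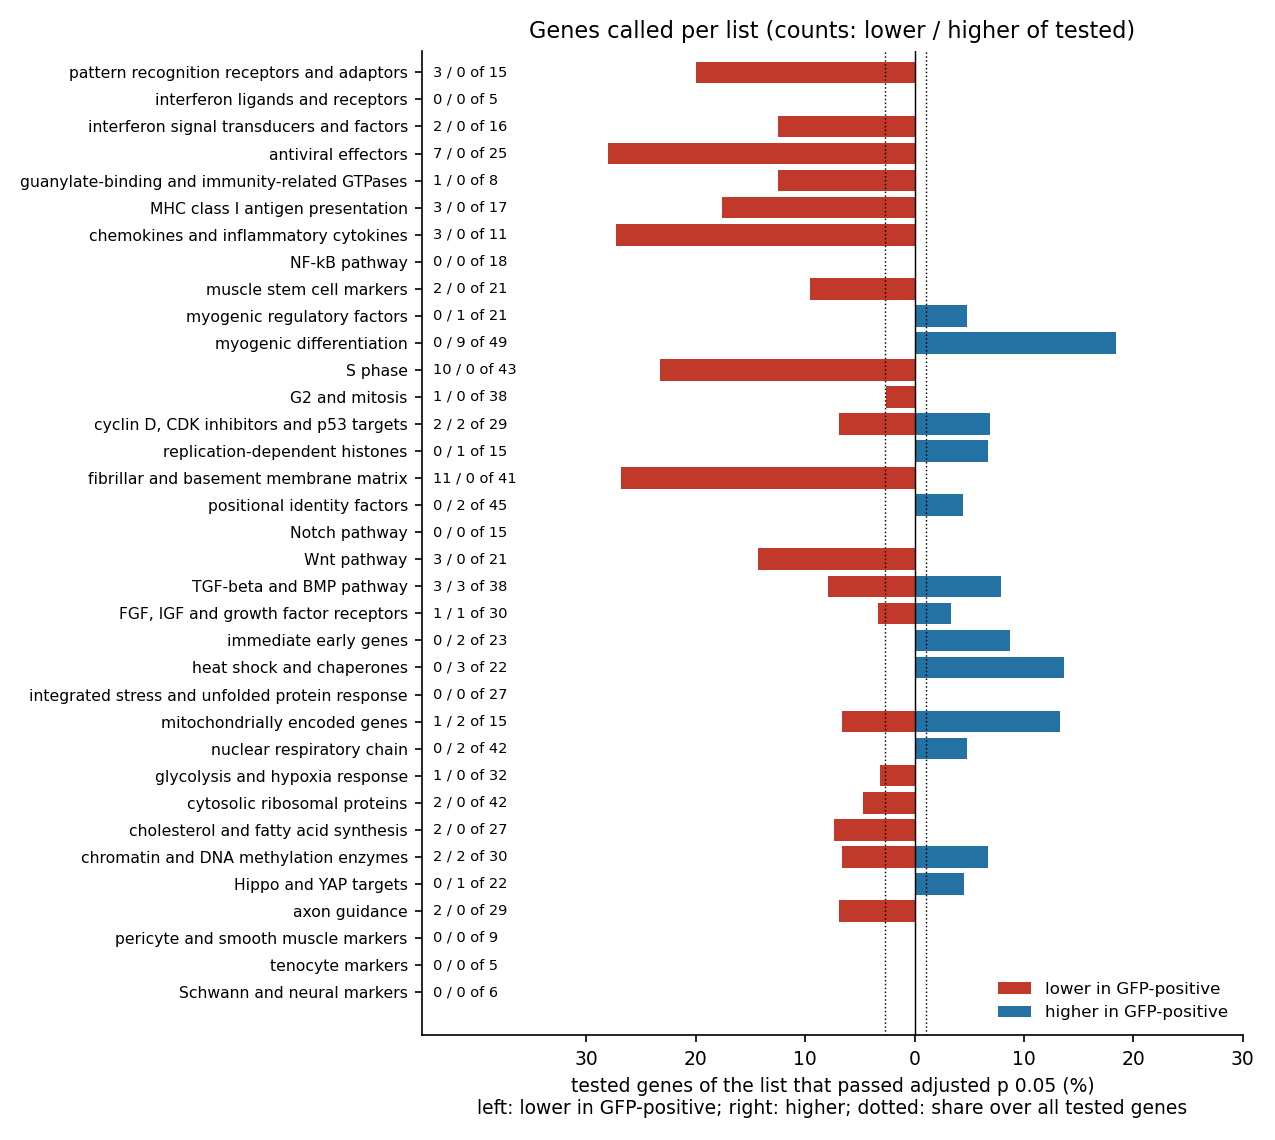
Bars give the percent of tested genes of each list that passed adjusted p 0.05 between the control groups, to the left for lower and to the right for higher in GFP-positive libraries, with the counts beside them. Dotted lines mark 2.73% and 1.02%, the shares over all 13790 genes. Lists with fewer than 5 tested genes are left out. The antiviral effector list reaches 28.0% lower and the differentiation list 18.4% higher.

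Antiviral and interferon-response genes were among those that differed most in fold between the control groups. Each list gene that passed with limma-trend was lower in GFP-positive cells, while DESeq2 called 20 lower and 1 higher. Of 86 tested genes over the interferon lists (sensors, receptors, transducers, effectors, GTPases and antigen presentation), 16 were lower and 0 higher, or 18.6% lower against 2.73% of all genes. The median difference of the 86 was -0.27, against -0.0047 over all genes. The matrix and S phase lists described further on had larger shares of lower genes (26.8% and 23.3%) and like medians. A further 38 list genes were read but fell under the filter. Leaving out GFP-negative control library 1 or 2 gave a count of 10, and leaving out any other single control library gave 11 to 14. Together with 3 chemokines, 19 genes of these lists were lower, and 3 of them (Ccl5, Usp18 and Ccl2) passed the filter through the GFP-negative libraries alone. These 3 had to differ, so their values are given as a description, with no test. The counts and shares of lower genes still include them, with Usp18 among the 16 of 86.

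Among pattern recognition receptors and their adaptors, 3 of 15 tested genes were lower (20% against 2.73% of all genes). Ifih1, which encodes MDA5 (GRCm38 chromosome 2, 62595798 to 62646255, minus strand), had 443, 348 and 407 normalized counts in GFP-negative and 67.3, 31.0 and 21.9 in GFP-positive control libraries. The groups lay far apart, with a difference in log2 of -3.43 ± 0.42 (SE; limma-trend adjusted p = 0.00138). Ddx60, a helicase that aids RNA sensing, had 144, 187 and 126 against 15.3, 21.6 and 17.7, a difference of -2.99 ± 0.30 (adjusted p = 0.000335). For Ddx58, which encodes RIG-I, the contrast was smaller, with 111, 125 and 119 against 83.4, 52.0 and 51.5 (log2 -0.95, adjusted p = 0.0442), but the groups again did not overlap. Mavs, the adaptor of MDA5 and RIG-I, had 1304, 1204 and 1310 against 1144, 1189 and 1208 and was not called (log2 -0.11).

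Interferon receptors gave no call and transducers a few. With limma-trend and edgeR 0 of 5 tested ligand and receptor genes passed (2 at an unadjusted p under 0.05, and 1 lower with DESeq2), and Ifnar1, a chain of the type I interferon receptor, had 870, 794 and 830 in GFP-negative against 699, 750 and 703 in GFP-positive control libraries (log2 -0.21, limma-trend adjusted p = 0.167). Of 16 transducers, 2 were lower (12.5% against 2.73% of all genes), and the list's median difference was -0.04. The 2 include Usp18, whose outcome the filter fixed. Irf7, a transcription factor induced by interferon, had 141, 195 and 215 against 74.96, 91.9 and 71.7 (log2 -1.18, adjusted p = 0.0292), and overlaps Phrf1 on the opposite strand. The other was Usp18, a protease that removes ISG15 and restrains the receptor, at 25.7, 15.9 and 11.3 against 1.53, 2.21 and 0 (log2 -3.14). DESeq2 called 1 transducer lower and 1 higher. Stat2 and Irf9, which carry the signal to the nucleus, were not called with limma-trend, with log2 differences of 0.24 and 0.30. These genes and Mavs were picked for mention after their values were seen.

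Among antiviral effectors 7 of 25 genes were lower (28.0%), with a list median of -0.57. Oasl1 (chromosome 5, 114923240 to 114937915, plus strand), a member of the oligoadenylate synthetase-like family that regulates antiviral signalling, had 565, 532 and 468 normalized counts in GFP-negative and 13.8, 12.2 and 26.2 in GFP-positive control libraries. On the log2(value + 1) scale they were apart by -4.90 ± 0.26 (SE), or 29.9-fold, at an adjusted p of 6.68e-07 with limma-trend. The ubiquitin-like modifier Isg15 (chromosome 4, 156199424 to 156200818, minus strand) had 206, 176 and 137 against 13.0, 12.7 and 17.7, a difference of -3.48 ± 0.24 (adjusted p = 7.86e-06). Ifit1 (chromosome 19, 34640871 to 34650009, plus strand), which binds RNA lacking cap methylation, had 266, 297 and 200 against 36.7, 27.1 and 34.6 (log2 -2.91 ± 0.28, adjusted p = 0.000327). In each of these genes the lowest GFP-negative library was several-fold above the highest GFP-positive one.

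Ifitm3, which blocks virus entry at the endosome, differed by less but with little spread, at 782, 654 and 673 against 321, 310 and 298 (log2 -1.18 ± 0.13, limma-trend adjusted p = 0.000418). In Rsad2 and Oasl2 a single library stood apart within the GFP-positive group. Rsad2, which encodes viperin, had 105, 104 and 97.6 against 1.53, 15.5 and 18.6 (adjusted p = 0.00948). Oasl2 had 72.8, 71.4 and 62.8 against 30.6, 1.11 and 2.53 (adjusted p = 0.0205), and was not called by edgeR (adjusted p = 0.0520). Samd9l, an antiviral factor of interferon-induced genes, had 49.3, 72.1 and 54.4 against 25.2, 26.6 and 17.7 (log2 -1.30, adjusted p = 0.0305). Oasl1 and Oasl2, and the members of the Ifit and Ifitm families, are related copies whose reads the authors' counting may have split.

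Of 8 guanylate-binding and immunity-related GTPases, Irgm1, which acts on membranes of intracellular pathogens, was lower (120, 182 and 159 against 64.3, 45.9 and 82.7; log2 -1.27, limma-trend adjusted p = 0.0136). MHC class I genes gave 3 lower of 17 (17.6% against 2.73% of all genes), smaller in size and among the steadiest. H2-K1, a class I heavy chain, had 1866, 1744 and 1918 against 1188, 1304 and 1229 (log2 -0.57 ± 0.07, adjusted p = 0.00139), and H2-D1, a second heavy chain of near-identical sequence, a difference of -0.61 ± 0.08. B2m, the light chain shared by all class I molecules, had 3828, 4196 and 3767 against 2812, 3082 and 3054 (log2 -0.40 ± 0.07, adjusted p = 0.00846). None of these 3 genes overlapped between the groups, nor did any of the 377 genes called lower, so this adds nothing to the calls. Over all genes, 14.6% were lower without overlap.

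Chemokines, which draw leukocytes, gave 3 lower of 11 tested (27.3% against 2.73% of all genes). Of the 3, Cxcl10 alone also passed the filter through GFP-positive libraries. Ccl5 had 85.7, 61.8 and 62.8 normalized counts in GFP-negative and 1.53, 3.32 and 2.53 in GFP-positive control libraries (log2 -4.38). For Cxcl10, an interferon-induced chemokine, the values were 62.1, 67.4 and 76.9 against 3.06, 13.3 and 16.03 (limma-trend adjusted p = 0.00739). Ccl2, which attracts monocytes, had 25.7, 15.9 and 23.4 against 2.29, 6.09 and 4.22 (log2 -2.17). In the NF-kB list, the other route from these sensors to cytokine genes, 0 of 18 were called by limma-trend, edgeR or DESeq2 (6 at an unadjusted p under 0.05), and the median difference was -0.20. Its count rose to 2 lower without GFP-positive control library 3. Chuk, a kinase of that pathway, had 1429, 1636 and 1778 against 461, 707 and 1196, and the difference of -1.14 did not pass (limma-trend adjusted p = 0.0837).

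**Figure D2:**
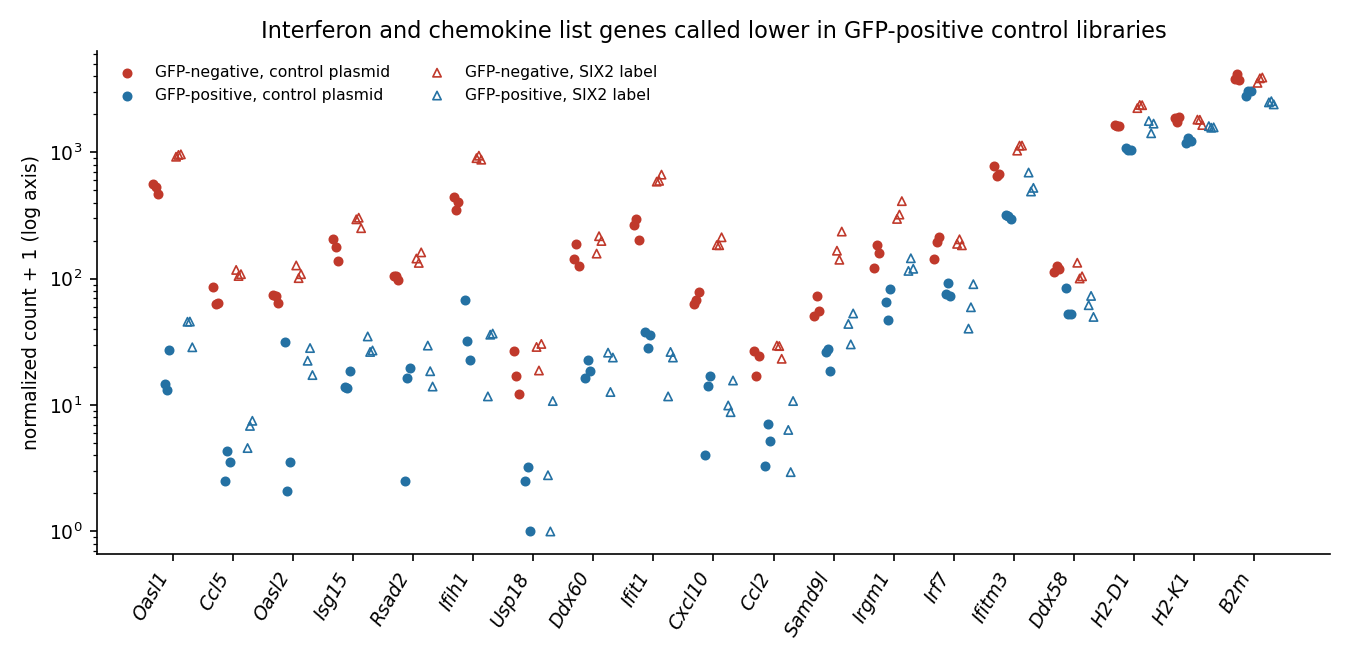
Each point is 1 library, with the normalized count plus 1 on a log axis, for the 19 genes of the interferon and chemokine lists called lower in GFP-positive control libraries, ordered by their control difference. Filled circles are control libraries and open triangles libraries of the SIX2 label, red for GFP-negative and blue for GFP-positive. Oasl1 stands at 468 to 565 in GFP-negative and 12.2 to 26.2 in GFP-positive control libraries.

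Promoter sequence was read for these genes because interferon-induced factors bind a known element there. The window ran from 250 bases before to 50 bases after each start in RefSeq's GRCm38.p6 table, which matched 16 of the 19 genes by symbol, all but Ccl2, Ccl5 and Usp18, and 10266 of the 13790 tested genes. The core of the interferon-stimulated response element was searched on both strands as GAAA, NN and GAAA in a row, N being any base. It was found in 10 of the 16 windows (62.5%), in 18 of 64 windows of list genes that were not called (28.1%), in 10 of 277 windows of the other lower genes (3.61%), in 3 of 102 of the higher genes (2.94%) and in 3.32% of all tested genes. A match is a run of letters and not a shown binding site. The gamma-activated site core TTCNNNGAA, which is its own reverse complement, was in 6.25% of the 16 and 7.95% of all tested windows. The following stretches of 160 bases are read 5′ to 3′ on the strand of the gene and end at or near the start site. Capitals mark the matched letters, overlapping matches joined, and the stretches show that both orientations and repeated copies occur.
Isg15, chr4:156200819-156200978, minus strand: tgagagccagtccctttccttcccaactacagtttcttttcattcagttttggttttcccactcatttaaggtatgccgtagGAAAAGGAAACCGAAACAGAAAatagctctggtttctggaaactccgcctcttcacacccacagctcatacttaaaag
Ifit1, chr19:34640729-34640888, plus strand: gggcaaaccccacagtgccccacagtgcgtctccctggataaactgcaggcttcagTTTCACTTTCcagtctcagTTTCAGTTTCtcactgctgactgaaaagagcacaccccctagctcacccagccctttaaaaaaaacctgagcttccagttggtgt
Ddx60, chr8:61927927-61928086, plus strand: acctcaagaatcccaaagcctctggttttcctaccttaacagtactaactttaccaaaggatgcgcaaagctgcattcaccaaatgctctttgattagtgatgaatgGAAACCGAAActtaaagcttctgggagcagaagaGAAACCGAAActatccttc
Rsad2, chr12:26456453-26456612, minus strand: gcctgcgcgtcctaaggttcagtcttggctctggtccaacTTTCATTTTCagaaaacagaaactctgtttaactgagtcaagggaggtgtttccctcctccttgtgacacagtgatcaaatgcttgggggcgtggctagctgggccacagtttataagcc
Irgm1, chr11:48871421-48871580, minus strand: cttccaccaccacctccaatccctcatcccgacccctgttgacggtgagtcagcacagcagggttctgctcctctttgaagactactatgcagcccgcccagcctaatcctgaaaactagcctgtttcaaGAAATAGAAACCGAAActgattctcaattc
B2m, chr2:122147527-122147686, plus strand: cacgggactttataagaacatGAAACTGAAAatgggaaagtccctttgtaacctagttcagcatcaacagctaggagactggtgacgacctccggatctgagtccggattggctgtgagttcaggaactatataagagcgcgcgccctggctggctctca
Isg15, Ifit1, Ddx60 and Irgm1 hold more than 1 match in these stretches, and Rsad2 and B2m a single match. Among the genes printed, Isg15 had the largest log2 difference given here, -3.48, and B2m the smallest, -0.40. Oasl1 (-4.90) and Oasl2 (-3.50) differed by more and had no match in their windows. Irf7, Samd9l, H2-K1 and H2-D1 had none either.

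Tests under both labels used the same estimate of spread for each gene. The 6 libraries of the SIX2 label repeated the contrast for these genes in samples of their own. All 19 genes had a difference of the same sign there, against 51.1% of all tested genes, with a median of -2.33 beside -2.80 in control libraries, and 13 passed the test, where 0.167% of all genes were called lower. Oasl1 had 922, 953 and 964 normalized counts in GFP-negative and 44.7, 44.8 and 27.7 in GFP-positive libraries of the SIX2 label (log2 -4.60, limma-trend adjusted p = 7.71e-07). Ifit1 had 585, 594 and 665 against 10.7, 25.3 and 22.8 (log2 -4.98), and Ifih1 899, 940 and 874 against 10.7, 35.1 and 35.8 (log2 -5.18). The difference between plasmid labels was tested as an interaction and did not pass for either, at adjusted p = 0.0731 for Ifit1 and 0.173 for Ifih1. H2-K1 was an exception to the size, with -0.15 under the SIX2 label (adjusted p = 0.387; interaction adjusted p = 0.0951).

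Between the groups of the SIX2 label 25 genes passed in all (0.181%), 23 lower and 2 higher (0.0145%). Of these, 17 were also called in the control groups in the same direction, which is 68% of the 25 and 3.29% of the 517. Beside the 13 list genes they were Ptn, Ptk2b, Gpnmb and Apol9a, chosen after their values were seen. Ptn, the growth factor pleiotrophin, had 66.4, 52.3 and 40.3 in GFP-negative and 6.88, 12.2 and 6.75 in GFP-positive control libraries (log2 -2.51), and -2.81 under the SIX2 label. Apol9a, an interferon-induced apolipoprotein L gene outside the lists, had -1.46 and -2.18. The cytoplasmic kinase gene Ptk2b had -1.03 and -0.94, and Gpnmb, a transmembrane glycoprotein gene, -0.64 and -0.73. Plat, tissue plasminogen activator, was lower in control libraries (253, 186 and 144 against 41.3, 36.0 and 36.3; log2 -2.29 ± 0.25, limma-trend adjusted p = 0.000418) and had -1.24 under the SIX2 label, which did not pass (adjusted p = 0.0773).

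**Figure D3:**
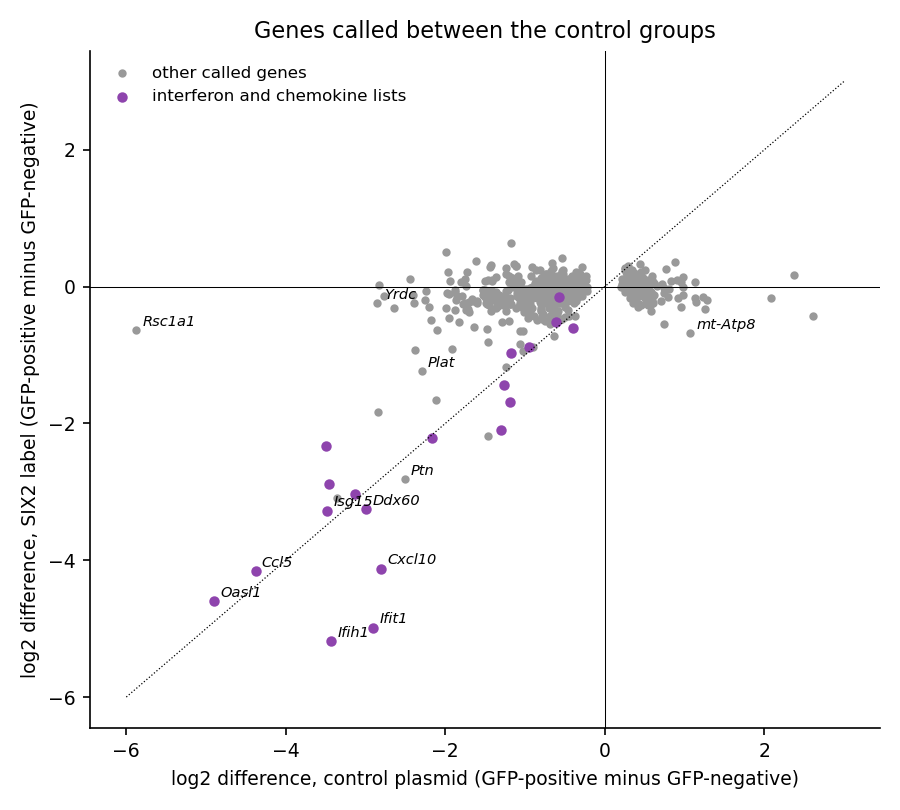
Each point is 1 of the 517 genes called between the control groups, with the log2 difference GFP-positive minus GFP-negative in control libraries on the x axis and in libraries of the SIX2 label on the y axis. The plotted differences share no library, though the calls rest on the spread of all libraries, and the dotted line marks equal differences. Genes of the interferon and chemokine lists (purple, 19 genes) lie near that line, with Ptn close to them, and most other genes lie near 0 on the y axis.

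The other 358 lower genes behaved differently from the interferon genes under the SIX2 label. Their median difference was -0.84 between control groups and -0.09 between groups of the SIX2 label, 68.2% had the same sign there, and 4 were called. Among the largest, Habp4, Slain2 and Rab5a were higher in each of the 3 GFP-negative control libraries than in every other library of the series. Habp4, an RNA-binding protein gene (chromosome 13, 64161824 to 64186537, plus strand), had 1741, 1888 and 2390 in GFP-negative and 223, 371 and 632 in GFP-positive control libraries, against 226 to 561 in the 6 libraries of the SIX2 label (log2 -2.41 ± 0.38, limma-trend adjusted p = 0.00708). Slain2, which promotes microtubule growth, had 4299, 3860 and 4963 against 889, 973 and 1545 (log2 -1.98 ± 0.24, adjusted p = 0.00134) and -0.09 under the SIX2 label. Rab5a, a GTPase of early endosomes, had 2585, 2754 and 3673 against 479, 856 and 1011 (adjusted p = 0.00624).

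Further genes with that pattern served unrelated processes. Yrdc, needed for a modification of transfer RNA, was at -2.85 in control groups and -0.24 under the SIX2 label. It overlaps genes on the opposite strand, as do Slain2, Rab5a, Coq2, Endog, Hnrnpu, Ptpn9 and Ankib1. Coq2, of coenzyme Q synthesis, was at -1.73 and 0.21, and the mitochondrial nuclease gene Endog at -1.94 and 0.09. Usp1, a deubiquitinase of DNA repair, had 816, 794 and 827 against 209, 242 and 341 (log2 -1.65), Hnrnpu, a nuclear RNA-binding protein, 3873, 3740 and 6499 against 1452, 1732 and 1758 (log2 -1.47), and Ankib1, a ubiquitin ligase, 679, 581 and 699 against 190, 277 and 232 (log2 -1.4961). Gmcl1 was at -2.76 and Ptpn9, a tyrosine phosphatase, at -1.85. In none of these genes did the control groups overlap, which the rule that named them required. The interaction, which tests whether the GFP contrast differs between plasmid labels, passed for 0 of 13790 genes with limma-trend and with edgeR (smallest limma-trend adjusted p = 0.0731), with 2382 genes (17.3%) at an unadjusted p under 0.05, and for 561 with DESeq2. Leaving out GFP-positive control library 3 raised its limma-trend count to 172, and leaving out GFP-positive library 3 of the SIX2 label raised it to 57.

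Many of the 358 genes, but not all, had a GC-rich stretch. For each gene the GC content of the richest 200-base window of its transcript was computed, and its median was 76.8% in the 358, 60% in the 19 interferon and chemokine genes and 66.5% over all tested genes. A window of 75% GC or more was present in 57.5% of the 358, 0% of the 19 and 20.7% of all tested genes. The genes named in the paragraphs on the 358, from Habp4 to Ptpn9, all had such a window, from 76.5% in Hnrnpu to 81.5% in Habp4 and Coq2. Of 1073 genes with a window of 80% or more, 94 (8.76%) were lower in GFP-positive control libraries, against 47 of 2859 genes (1.64%) between 60 and 65%. The libraries themselves moved in the same way: over the genes at 80% or more, the median log2 deviation of a library from the average library was 0.154, 0.083 and 0.137 for the GFP-negative control group, -0.116, -0.070 and 0.011 for the GFP-positive control group, with the SIX2-label groups on the same sides, at 0.0093, 0.043 and 0.077 in GFP-negative and -0.018, -0.033 and -0.092 in GFP-positive libraries. The median difference of these genes was -0.18 between control groups and -0.12 between groups of the SIX2 label. From 75 to 80%, 112 of 1786 genes (6.27%) were lower. There the deviations were 0.109, 0.093 and 0.088 in GFP-negative and -0.090, -0.0078 and 0.061 in GFP-positive control libraries. The SIX2-label groups overlapped in that bin, at -0.038, -0.012 and 0.0096 in GFP-negative and 0.029, -0.018 and -0.091 in GFP-positive libraries. With each library's trend on this measure removed, an alternative chosen after seeing the data, 518 genes were called, of which 430 were among the 517. The part of base composition in single gene differences was not tested.

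**Figure D4:**
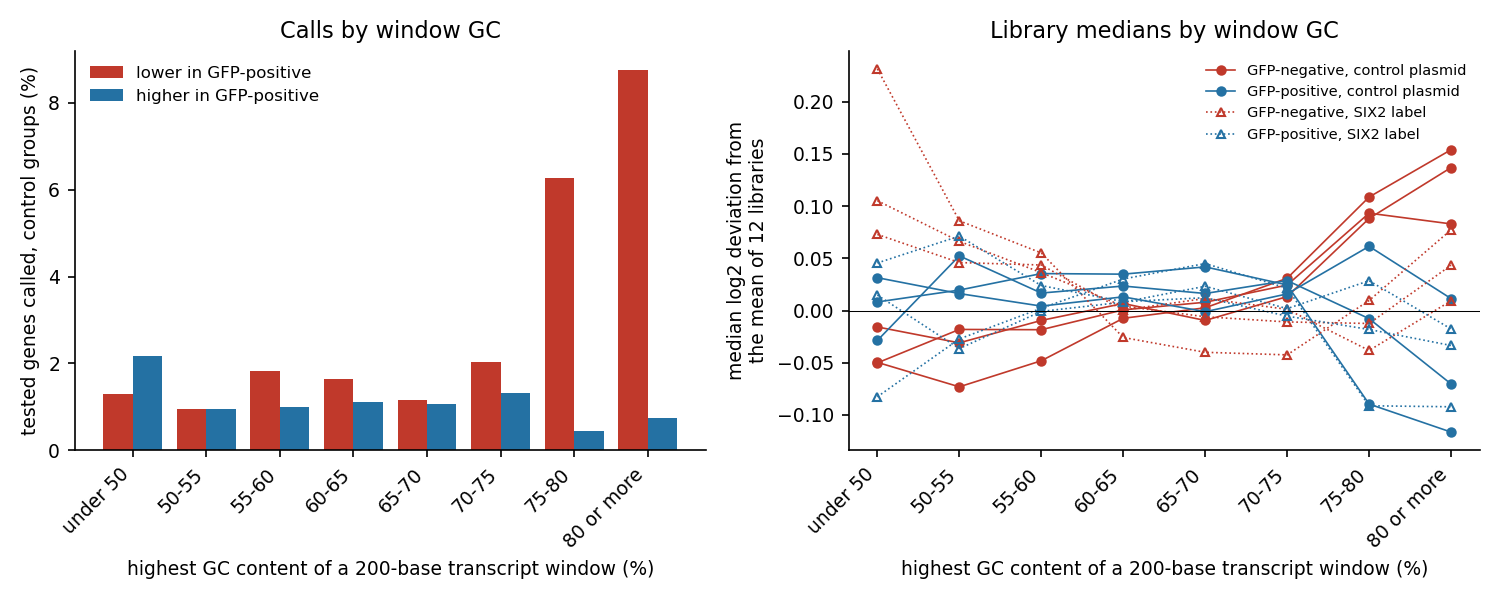
Left, the percent of tested genes called lower (red) or higher (blue) in GFP-positive control libraries by the highest GC content of a 200-base window of the transcript. Right, for the same bins, each library's median log2 deviation from the mean of 12 libraries, with solid lines for control and dotted lines for SIX2-label libraries. The share called lower rises to 8.76% in the bin of 80% or more, where the GFP-negative control libraries lie at 0.083 to 0.154.

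A minority of DNA replication genes passed, all lower in GFP-positive control libraries. Of 43 S phase genes, 10 were lower and 0 higher (23.3% against 2.73% of all genes). A difference below 0 was found in 38, and the median difference was -0.30, against -0.0047 over all genes. Lower without overlap were 17 of the 43, where 14.6% of all genes were. Ccna2, which encodes cyclin A2 of S phase and G2, had 1799, 1530 and 1609 normalized counts in GFP-negative and 1076, 1094 and 1056 in GFP-positive control libraries (log2 -0.61 ± 0.08, limma-trend adjusted p = 0.00213), with a window GC of 78.0%. Chaf1a, a histone chaperone of replication forks, had 542, 469 and 498 against 229, 330 and 300 (log2 -0.83, adjusted p = 0.0183). The helicase subunit Mcm2 had 1726, 1416 and 1520 against 1066, 1255 and 1053 (log2 -0.47, adjusted p = 0.0244). Also lower were Ccne1, a cyclin of S phase entry (-0.50), Uhrf1, which maintains DNA methylation (-0.51), Mcm3, Mcm5, Cdc6 and Rfc5. Without the control libraries in turn the S phase count was 1, 3 and 3 (GFP-negative 1 to 3) and 1, 5 and 5 (GFP-positive 1 to 3), it was 5 with quantile normalization, and under the SIX2 label it was 0 with a list median of -0.18.

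Mitotic genes leaned the same way with few calls: 35 of 38 had a difference below 0 and the median was -0.25, but only Bub1b, a spindle checkpoint kinase gene, passed (1054, 859 and 712 against 652, 636 and 489; limma-trend adjusted p = 0.0380), and it was called in 1 of the 6 fits without a control library. Of 29 genes of D cyclins, CDK inhibitors and p53 targets, 2 were higher and 2 lower. Cdkn1a, which encodes p21, had 35482, 37807 and 39922 in GFP-negative and 53248, 47154 and 45112 in GFP-positive control libraries (log2 0.36 ± 0.08, adjusted p = 0.0235), and Cdkn1b, which encodes p27, had 193, 226 and 174 against 316, 296 and 293 (log2 0.61 ± 0.13, adjusted p = 0.0215). In the same list Cdkn2c, an inhibitor of CDK4 and CDK6, and Bbc3, a p53 target that promotes cell death, were lower (-0.76 and -1.08), both with window GC near 80%. E2F core letters TTCCCGCC, on either strand, were in 3 of 8 promoter windows of the called S phase genes, beside 4.75% of all tested genes.

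A minority of contractile genes passed, all higher in GFP-positive control libraries and by small amounts. Of 49 differentiation genes, 9 were higher and 0 lower (18.4% against 1.02% of all genes), 10 had a difference below 0, the median difference was 0.13, and 24 were higher without overlap, where 13.3% of all genes were. Tnnc2, troponin C of fast fibres, had 49230, 52219 and 50856 normalized counts in GFP-negative and 78898, 69056 and 64517 in GFP-positive control libraries (log2 0.48 ± 0.07, limma-trend adjusted p = 0.00626). It was the list gene that passed without each control library. The other genes were Tnnt1, Tnnt2, Tnnt3 and Tnnc1, further troponins, with 0.25 to 0.32, Tpm2, a tropomyosin (0.25), Lmod3, an actin nucleator of thin filaments (0.37), Klhl41, a sarcomere-stabilising protein (0.25), and Myh8, perinatal myosin (0.43). Leaving out GFP-negative control library 1, 2 or 3 in turn gave counts of 1, 2 and 3, and GFP-positive control library 1, 2 or 3 counts of 1, 4 and 11. With quantile normalization the count was 5. Under the SIX2 label none was called and the list's median was 0.19.

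**Figure D5:**
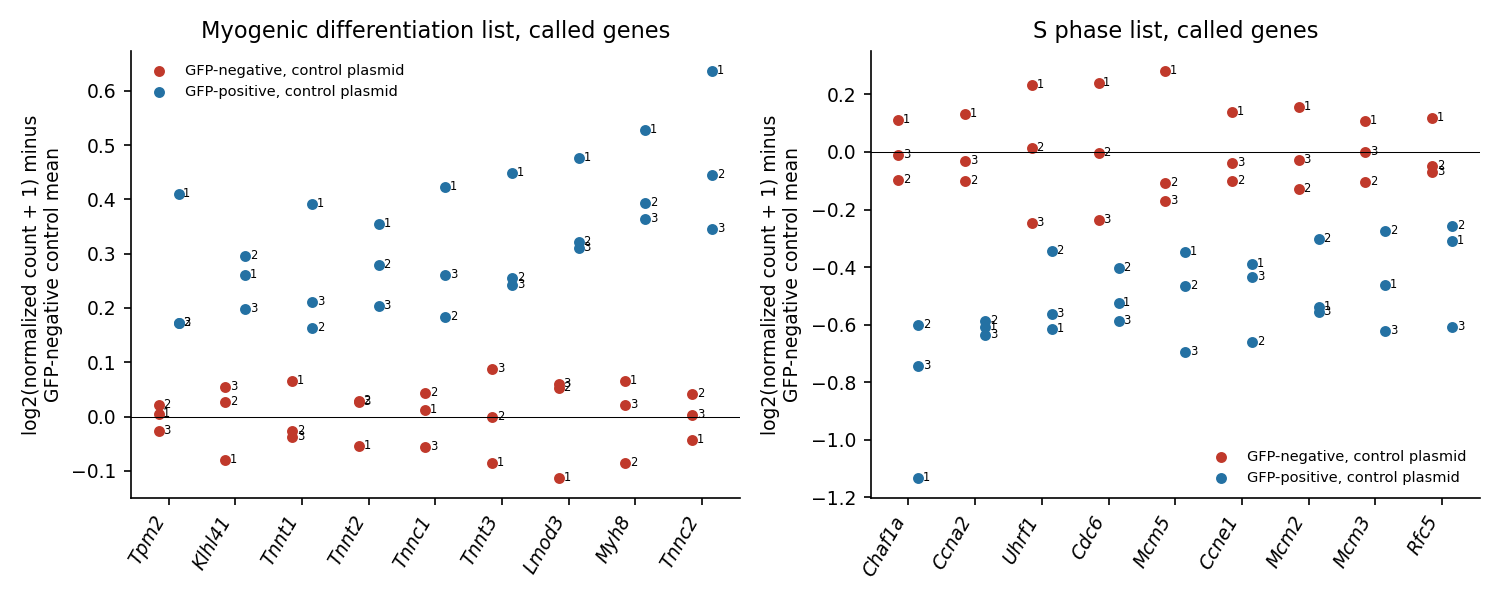
Points are the 6 control libraries, numbered by replicate, as log2(normalized count + 1) minus the GFP-negative mean, for called genes of the differentiation list (left, 9 genes) and the S phase list (right, 9 of 10 genes). GFP-positive libraries (blue) lie above all GFP-negative ones (red) on the left and below them on the right. GFP-positive library 1 has the largest rise in most differentiation genes.

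Upstream of these genes, the lineage factors Pax7, Myf5, Myod1 and Myog did not pass the test, which does not show that they were equal. Myod1 had 17237, 16252 and 19016 in GFP-negative and 16740, 17668 and 16969 in GFP-positive control libraries (log2 -0.03 ± 0.07), Myog, of early differentiation, a difference of 0.09 ± 0.06, Myf5 0.12 ± 0.11 and Pax7 -0.15 ± 0.20, with overlap in Myod1, Myf5, Myog and Pax7. Six4, a homeobox factor of the lineage, had 1026, 973 and 1013 against 542, 623 and 886 (log2 -0.59, limma-trend adjusted p = 0.0701), without overlap but not past the threshold. Of 21 regulatory factors Mef2c, which co-activates muscle genes with MYOD1, was the only one called, at 15834, 17262 and 16794 against 20569, 20250 and 19761 (log2 0.28 ± 0.05, adjusted p = 0.0149), and was not called without GFP-negative library 1 or GFP-positive library 1.

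Of 21 stem cell markers, Sdc3 and Fgfr1 were lower. Sdc3, a heparan sulfate proteoglycan of the satellite cell surface, had 4972, 4536 and 4649 against 1495, 1846 and 2254 (log2 -1.36 ± 0.15, limma-trend adjusted p = 0.000418), beside -0.21 under the SIX2 label and a window GC of 81.5%. Fgfr1, a receptor for basic FGF, had 2172, 2045 and 2161 against 914, 828 and 1514 (adjusted p = 0.0423), with a window GC of 79.5%. Cdh15, M-cadherin, had 5561, 5146 and 5274 against 4600, 5071 and 5214 and was not called. Of 45 positional identity factors 2 were higher, among them the patterning gene Tbx3 (870, 890 and 728 against 1435, 1374 and 1033; log2 0.62, adjusted p = 0.0255). Tbx3 was called in 1 of the 6 fits without a control library and overlaps the antisense transcript Tbx3os1.

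Of 41 tested extracellular matrix genes, 11 were lower in GFP-positive control libraries and 0 higher (26.8% against 2.73% of all genes), with a median difference of -0.28. Under the SIX2 label 0 were called and the list's median was -0.0050. Bgn, the proteoglycan biglycan, had 5276, 4046 and 3552 in GFP-negative and 2642, 2853 and 2593 in GFP-positive control libraries (log2 -0.65 ± 0.12, limma-trend adjusted p = 0.0152). Fbn1, the fibrillin of microfibrils, had 420, 320 and 261 against 143, 194 and 194 (log2 -0.90, adjusted p = 0.0178), and Spp1, osteopontin, 29605, 27299 and 24268 against 21681, 21339 and 19602 (log2 -0.37, adjusted p = 0.0272). GFP-negative library 1 was the highest of all 6 in each of these genes. The largest were Mmp14, a membrane metalloproteinase (log2 -1.70), and Loxl3, a collagen-crosslinking oxidase (-1.23), and Postn, Lamc1, Lox, Agrn, Timp2 and Thbs1 lay between -0.68 and -0.33. The list's count of lower genes became 0, 2 and 5 on leaving out GFP-negative control library 1, 2 or 3 in turn, and 0, 4 and 5 for GFP-positive control library 1, 2 or 3. It was 4 with quantile normalization and 5 with the replicate number as a block. Under the SIX2 label single matrix genes were mixed. Fbn1 had -0.88, Loxl3 -1.18, Spp1 -0.43 and Postn -0.43 there, none of them called, while Bgn had -0.06 and Lamc1 -0.17. The fibro-adipogenic markers, of cells that also make matrix, summed to the values given above, highest in GFP-negative library 1, with Gsn called by DESeq2, and their part in these differences was not tested; in bulk samples fewer cells of a type and less RNA per cell cannot be told apart.

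Calls in the signalling lists were few in number. Lower were 3 of 21 Wnt pathway genes (14.3% against 2.73% of all genes), the receptors Fzd1 (1026, 925 and 1027 against 132, 208 and 612; log2 -1.95) and Fzd7 (-1.14) and the co-receptor Lrp5 (-1.11), each with a window GC of at least 77.0%. Of 38 TGF-beta and BMP genes 3 were lower (7.89%) and 3 higher (7.89%, against 1.02% of all genes). Inhbb, the beta B subunit of activin and inhibin, was at 186, 132 and 127 against 25.2, 29.9 and 26.2 (log2 -2.39 ± 0.29, limma-trend adjusted p = 0.00138; window GC 87.5%). The ligand Tgfb1 was lower too (-1.41), while Tgfb2, Gdf11 and the receptor Bmpr2 were higher by 0.41 to 0.47. The insulin receptor substrate Irs1 was higher (0.53), as was Jun, a subunit of AP-1 (3901, 3959 and 4698 against 5789, 5811 and 5801; log2 0.48 ± 0.08, adjusted p = 0.00739). Axon guidance gave 2 lower of 29, the receptors Ephb3 (-1.24) and Plxna3 (-1.11). In the Notch pathway 0 of 15 genes passed with limma-trend, edgeR or DESeq2, and 2 had an unadjusted p under 0.05. In the integrated stress and unfolded protein response 0 of 27 passed with limma-trend or edgeR, 3 had an unadjusted p under 0.05, and DESeq2 called 1 lower and 1 higher.

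Of the 140 higher genes, 10 differed by over 2-fold. Of the 5 genes higher in each fit without a control library, the named ones were Tnnc2 and Fabp3, which carries fatty acids in muscle. Fabp3 was at 8470, 9074 and 9292 in GFP-negative and 13124, 11517 and 12072 in GFP-positive control libraries (log2 0.45 ± 0.06, limma-trend adjusted p = 0.00228). Tmsb10, an actin-binding peptide gene, had 69598, 75093 and 68929 against 169900, 109570 and 101450 (log2 0.80 ± 0.16, adjusted p = 0.0205), and Myhas, an antisense transcript of the myosin cluster, 98.5, 128 and 114 against 393, 206 and 192 (log2 1.14). In both, GFP-positive library 1 was far above the other GFP-positive libraries. Fbxo16 (1.13), Nfia, a transcription factor (0.74), Lmbr1l (0.77), Mtss1 (0.65), Tnrc6c (0.61) and Atp5k, a subunit of ATP synthase (0.74), completed the named genes. Of 22 heat shock genes, 3 were higher: the small heat shock genes Cryab (35949, 37532 and 38467 against 52725, 45536 and 47049; log2 0.37, adjusted p = 0.00922) and Hspb1 (0.31), and Hspa1a (0.71), which has a near-identical copy.

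Transcripts of the respiratory chain were mostly not called. Cox6a2 and Cox8b, muscle forms of cytochrome oxidase subunits, were higher among 42 nuclear genes (log2 0.44 and 0.60, limma-trend adjusted p = 0.0141 and 0.0260). That is 4.76%, against 1.02% of all genes. Of the 42, 20 were higher and 3 lower without overlap, against 13.3% and 14.6% of all genes. In limma-trend 17 had an unadjusted p under 0.05, and DESeq2 called 9 higher. Of 15 mitochondrially encoded genes mt-Atp8 and mt-Nd6 were higher and mt-Co1 lower, the last at 204850, 181410 and 184860 against 102080, 139740 and 166850 (log2 -0.51, adjusted p = 0.0437), and mt-Atp8 shares sequence with the gene beside it. Higher calls were commoner among short transcripts, with 4 of 107 genes under 500 bases (3.74%) and 24 of 689 from 500 to 1000 bases (3.48%) against 40 of 5628 from 2000 to 4000 bases (0.711%), and the part of transcript length in these differences was not tested. The histone gene H2ac18, short and with near-identical copies, was at 0.83. Among chromatin enzymes the histone methyltransferase Kmt2d (0.44) and the demethylase Kdm6b (0.46) were higher, and Suv39h2 (-2.83) and Uhrf1 lower, of 30. Lower calls elsewhere were Pgam1 among 32 glycolysis genes (-0.23), Rpsa and Rps2 among 42 ribosomal protein genes (-0.54 and -0.37), and Fdft1 and Insig1 among 27 lipid synthesis genes (-0.32 and -0.36).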

How the data were processed

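RNA of sorted and transfected mouse muscle stem cells was turned into cDNA by SMART-Seq2, fragmented with Tn5 and amplified, per the labels' protocols, which do not mark the strand, so reads of genes that overlap on opposite strands cannot be told apart. Per the submitters' processing notes, the build was GRCm38 and the tools STAR 2.7.11a, RSEM 1.3.3, FastQC 0.12.1, MultiQC 1.19 and DESeq2 1.42.0, whose settings are not given in the sources used here. The deposited values are normalized counts per gene, a signal on a linear scale that the authors scaled per library. Each library's smallest step, taken as 1 read, turned 100% of the values into whole reads (within 1e-04), 12438885 to 47299937 per library, with 1 read worth 0.553 to 2.14 normalized counts.

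Groups came from the sample titles. limma-trend (limma 3.58.1, R 4.3.3) was fitted to log2(normalized count + 1) over all 12 libraries as 4 group means, with two-sided tests and Benjamini-Hochberg adjustment over the 13790 genes with at least 10 in at least 3 of the 6 control libraries. This scale understates the change of low genes. Contrasts were GFP-positive against GFP-negative under the control label, the same under the SIX2 label, and their difference. The genes kept, the 38 gene lists and the tests were chosen with earlier results of these data known. Named by rule were Pax3, Pax7, Myf5, Myod1, Myog, Six2 and Six4, up to 20 lower and 15 higher genes of largest change (called, no overlap, higher group's mean at least 50, called without each control library, the higher ones filled up by size), and up to 6 called genes per list, or 2 as values. Some genes that the rule names, or that the list counts include, are not reported here. Other list members and genes called under both labels were named after their values were seen. In simulated data, counts were drawn for each gene independently around its mean over all 12 libraries, and only genes with a mean over 50 were changed. The fit recovered 43% of genes changed 1.5-fold and 84% of those changed 2-fold, with 6 false calls among 13590 genes. Shifts shared by many genes of a library were not simulated, so the false calls in the real data can be more. Replicate pairs of a group differed by more than sampling noise (chi-square per degree of freedom 7.54 to 50.6). Alternatives were other pseudocounts, filters and scalings, a replicate block, library weights, each library left out, thinning, edgeR 4.0.16 and DESeq2 on the whole reads and, added after the data were seen, removal of GC trends. Identifiers matched GENCODE's GRCm38 annotation for 99.8% of genes.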

Additional observations from a re-analysis of the deposited data

Results flagged for a closer look

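Some genes called between the control groups had every library of the GFP-positive group on one side in control libraries and on the opposite side in libraries of the SIX2 label. Every gene called between the control groups was without overlap there. Under the SIX2 label 17.5% of all tested genes were without overlap, in either direction. How many called genes changed sides was not counted. Lrp5 had a log2 difference (GFP-positive minus GFP-negative) of -1.11 in control libraries and 0.30 under the SIX2 label. For Bmpr2 the differences were 0.42 and -0.30, for Cdkn1b 0.61 and -0.13, and for mt-Atp8 1.07 and -0.68. The interaction test of the difference between plasmid labels did not pass for any of these 4 genes (limma-trend adjusted p = 0.106 for Lrp5, 0.0949 for Bmpr2, 0.0951 for Cdkn1b and 0.0731 for mt-Atp8).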

How the results depend on the processing

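The count of 517 genes between the control groups moved to 342 without a filter on low values, 304 with the replicate number as a block (replicate block: 82 higher, 222 lower), 1610 with library weights and 1091 with DESeq2, and lay between 72 and 846 with 1 library left out. Between groups of the SIX2 label the 25 genes became 39 with library weights and 286 with DESeq2, and 12 to 76 with 1 library left out. The interaction count of 0 became 325 with library weights, 561 with DESeq2, 5 with all libraries thinned to the smallest and 3 with the window GC trend removed, and 0 to 172 with 1 library left out. The combined interferon count of 16 lay between 10 and 17 with 1 library left out and was 13 with the block. The causes were not tested. Same-numbered libraries of the control groups did not deviate together (correlations -0.020, -0.028 and 0.007, none the highest for its library), so the numbers were not taken as pairs.

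Of 98 named genes called between the control groups, 91 kept their call with edgeR, all 96 that got an adjusted p with DESeq2 (Usp18 and Ccl2 got none), 81 with quantile normalization, 90 with the window GC trend removed and 71 with the 6 control libraries alone, and between 29 and 83 when 1 control library was left out. None of the 98 reversed in any alternative. Differences that reversed were near 0 and not called. Pax7 lay between -0.34 and 0.074 with 1 library left out (above 0 without GFP-negative control library 1). Myod1 lay between -0.081 and 0.033 (above 0 without GFP-negative control library 3), and was 0.043 with library weights and 0.035 with the transcript GC trend removed. Pax3 lay between -0.22 and 0.10 (above 0 without GFP-negative control library 1 or 3 and without GFP-positive control library 2 or 3), and was 0.089 with quantile normalization, 0.017 with edgeR and 0.019 with DESeq2. Vwf, an endothelial marker, lay between -0.056 and 0.39 (below 0 without GFP-negative control library 2 or GFP-positive control library 1). A read is worth up to 2.14 normalized counts, so genes at a few counts, such as Ccl5 or Usp18 in GFP-positive libraries, rest on single reads.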
